A study of Mus musculus with 9 samples.

Results

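Amino acid transporters of the Slc1a, Slc3a, Slc7a, Slc36a, Slc38a and Slc43a families were followed in mouse mammary tumour cells. The arrays were labelled either for the Wnt inhibitor Fzd8-CRD or as control. The members were all non-control probes whose gene name in the scanner files of the Fzd8-CRD arrays begins with 1 of these 6 stems, 67 of 41174 probes for 37 of 27579 genes. Of these, 52 probes for 31 genes were well above background in the tumour cell channel on at least 4 of the 9 arrays and were tested, among 26835 probes for 18272 genes in all. Slc1a2, Slc1a7, Slc7a10, Slc7a12, Slc7a13 and Slc36a2 had no member probe that passed this filter and have no value here. The name rule also takes in Slc7a6os, an opposite-strand neighbour of Slc7a6 that is not a transporter.

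The study compared 5 arrays of treated cells with 4 control arrays. The cells came fresh from tumours of MMTV-Wnt-1 and MMTV-Her2 mice, whose transgenes (Wnt-1, a ligand, or Her2, a growth factor receptor) are driven by the promoter of the mammary tumour virus MMTV, and were sorted by flow cytometry for absence of green fluorescent protein. The labels name both tumour models for all 9 arrays, so the models cannot be told apart, and animal numbers, strain background and age are not given in the sources used here. Fzd8-CRD, a soluble form of the part of the receptor Frizzled 8 that binds Wnt, is named in the treatment protocol of all 9 arrays, so what the controls received is not given either, and dose and time are not stated. Each array carried tumour cell RNA in Cy5 and a pooled reference RNA in Cy3. Values below are log2 ratios of Cy5 over Cy3, and a difference is the mean of the Fzd8-CRD arrays minus the mean of the control arrays, with the standard error (SE) and the adjusted p of limma. A change was called at an adjusted p under 0.05 over all genes tested. The design text speaks of biological replicates but does not say how many animals lie behind an array.

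Amino acid transporters move amino acids across the plasma membrane or out of the lysosome. The large neutral amino acid exchangers of the Slc7a family reach the cell surface only as a pair with a glycoprotein heavy chain, Slc3a2 (CD98) or Slc3a1, whereas the Slc1a and Slc38a families take up glutamate, glutamine and small neutral amino acids with sodium. Cells short of amino acids translate the transcription factor ATF4, which raises several of these carriers, and amino acids leaving the lysosome feed the mTORC1 kinase. In the mammary gland and in tumours these carriers supply leucine and glutamine for protein synthesis and growth.

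The probes behind the calls, and the probes of the same genes that differed from them, are shown by the first 30 of their 60 bases, 5′ to 3′ in lower case, with the mm8 position of the whole probe as the scanner files give it. No annotation of that build was used here, so exons and untranslated regions are not assigned.
Slc43a2, cDNA clone probe, chr11:75350746-75350805, plus strand: gcctatcatttataaccaacctttagcctt
Slc43a2, RefSeq transcript probe, chr11:75390639-75390698, plus strand: gagagctattgtgtattttccaaaccatct
Slc7a8, RefSeq transcript probe, chr14:53676505-53676564, minus strand: tatttcttttggattttttaatgtatggcg
Slc3a2, brighter RefSeq transcript probe, chr19:8774744-8774803, minus strand: gagggcttgctgttacagttcccctttgtg
Slc3a2, dimmer RefSeq transcript probe, chr19:8780738-8780797, minus strand: gcaccatgagccaggacaccgaagtggaca
Slc38a2, cDNA clone probe, chr15:96526116-96526175, minus strand: caaagaatagtgttacttttagatttcaaa
Slc38a2, brightest RefSeq transcript probe, chr15:96516094-96516153, minus strand: aaggttccaaatgaatttcaggccaaattc

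All 4 control arrays lay on 1 slide scanned on 1 day, while the 5 treated arrays were spread over 4 further slides and scanned 367 or 378 days later, so slide, scan day and treatment cannot be told apart. The Cy3 reference signal itself differed between the groups for 59.2% of all genes tested (adjusted p under 0.05 in Cy3 alone), and for 18 of the 31 members (58.1%). Control replicate 2 correlated less with the other arrays (0.618 to 0.737) than they did with their nearest neighbours (at least 0.912). The epithelial markers Epcam, Krt8, Krt18, Krt5 and Krt14 were well above background on all 9 arrays. Among 10 basal markers 3 were higher (median difference 0.79, Krt5 by 0.80), with Oxtr at -0.10. Their array medians were -0.251 to 0.641 with Fzd8-CRD against -0.894 to -0.215 in controls. Among 10 luminal markers 1, Cldn4, was lower (median -0.62), with Krt19 at 0.07 and Cldn3 at 0.11. Their array medians were -0.936 to 0.311 against 0.021 to 0.604, so the groups overlapped in both lists. Of 10 fibroblast markers 3 were lower (median -1.005), while Fbln2 (1.01), Pdgfra (0.81) and Dcn (0.04) lay above 0 without passing. Fibroblast array medians overlapped, at -0.705 to 0.267 with Fzd8-CRD against -0.687 to 1.22 in controls. Of 10 macrophage markers 1, Mrc1, was lower, near the share over all genes, and it was above background on 1 treated array. Macrophage array medians overlapped too (-0.572 to 0.066 against -0.035 to 1.25). Of 12 endothelial markers, 12 were lower in the Fzd8-CRD group, with array medians of -1.37 to -0.08 against 0.85 to 1.44 in controls. Of 4 measured erythroid markers 3 were lower, with medians of -1.95 to -0.82 against 0.68 to 5.12. That list held 10 genes, and 1 of the 4 measured was above background on every array. Slc4a1 was above background on 1 treated array and Hbb-bt on 3, but both on all 4 controls. Over all genes tested 6.59% were higher and 7.75% lower. The part of these cell types in the results below was not tested, and in bulk samples fewer cells of a type and less RNA per cell cannot be told apart.

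Across the 6 families, 1 of 31 members was higher (Slc43a2) and 2 were lower (Slc3a2 and Slc7a8) in Fzd8-CRD cells, and 28 did not pass the test. That is 3.23% higher and 6.45% lower, near the shares over all genes tested, 6.59% higher and 7.75% lower. The 2 groups did not overlap, with every Fzd8-CRD array above, for 1 member against 7.9% of all genes, and with every Fzd8-CRD array below, for 2 members against 11.7% of all genes. The median difference of the members was -0.10 on the log2 scale, beside -0.07 over all genes tested, and 15 members lay above 0 and 16 below. The shares of members called were no higher than those of the array as a whole, and the results below are those of single genes. The split of the calls moved with the scaling. The scanner software's own log ratio gave 2 higher (Slc43a2 and Slc1a1) and 1 lower (Slc7a8), beside 8.5% higher and 6.65% lower over all genes. Median centring gave 1 higher and 1 lower, beside 1.69% and 1.66%. Scaling between arrays also gave 1 and 1, beside 5.39% and 5.95%.

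**Figure D1:**
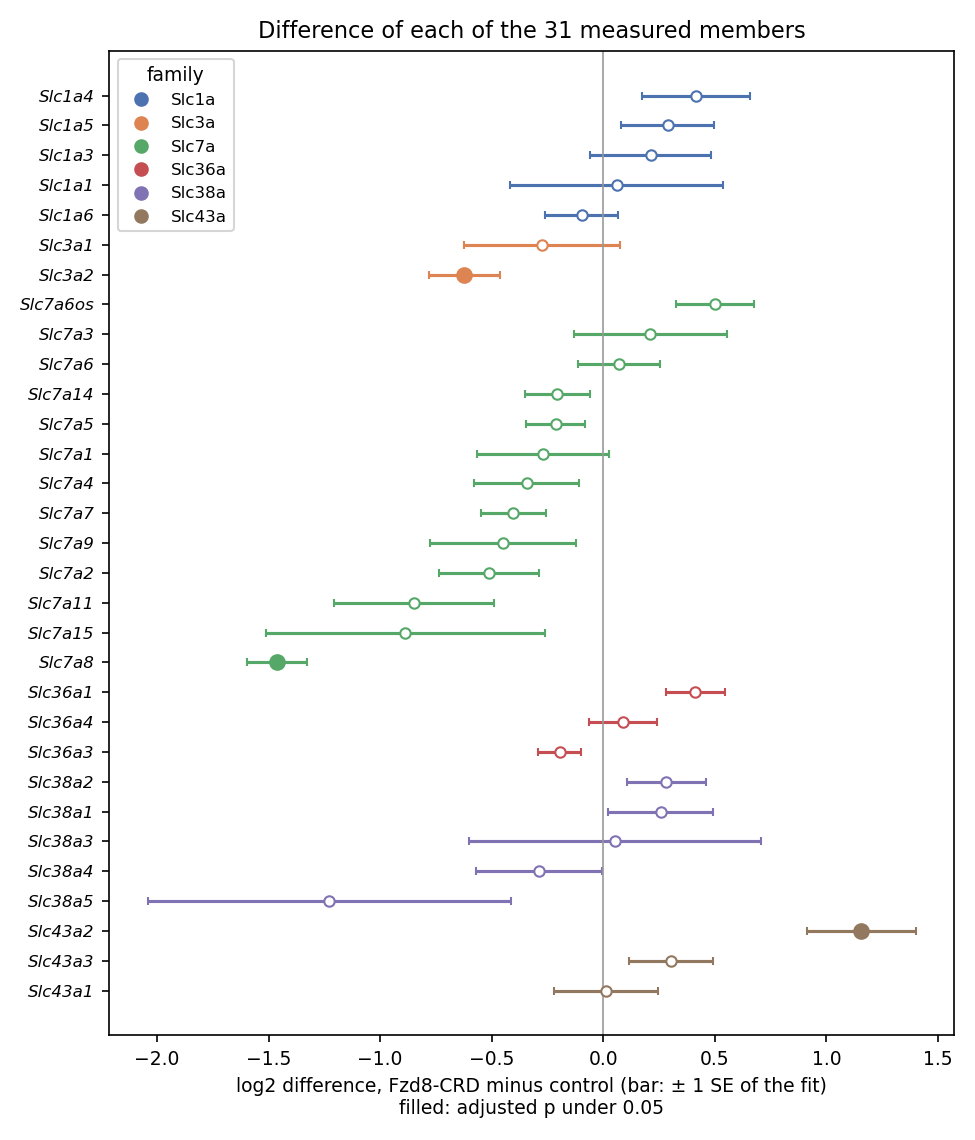
Log2 difference (Fzd8-CRD minus control, x axis, with 1 SE of the fit) of each of the 31 measured members, coloured by family; filled points passed an adjusted p of 0.05. Slc43a2 at 1.16, Slc3a2 at -0.62 and Slc7a8 at -1.46 are the filled points, and the widest error bar is that of Slc38a5.

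Slc7a8 (LAT2), a light chain that exchanges large and small neutral amino acids, was 2.75-fold lower in Fzd8-CRD cells. Its log2 ratio was 0.01, 0.02, 0.43, 0.0043 and -0.13 on the 5 Fzd8-CRD arrays and 1.37, 1.55, 1.61 and 1.59 on the 4 control arrays. The groups did not overlap, and every control array lay far above the highest treated array. The difference was -1.46 (SE 0.13, adjusted p = 0.00122), larger than the spread within either group (SD 0.21, n = 5, and 0.11, n = 4). Both channels entered it: Cy5 alone was lower by a difference of -0.46 (adjusted p = 0.0456), and the Cy3 reference was higher on the Fzd8-CRD arrays by 0.81 (adjusted p = 1.63e-07). The larger of the 2 channel differences lay in the reference. Slc7a8 had a single probe, so no second probe speaks to it, and over all 25 alternatives its adjusted p stayed between 6.56e-05 and 0.0456. Those alternatives are not independent, and several could not change its difference.

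Slc3a2, the CD98 heavy chain that pairs with Slc7a5, Slc7a8, Slc7a6, Slc7a7 and Slc7a11, was 1.54-fold lower. Its log2 ratio was 0.45, 0.55, 0.13, 0.57 and 0.09 with Fzd8-CRD and 1.16, 1.15, 0.92 and 0.69 in controls. All 5 treated arrays lay below the lowest control array, by a narrow margin. The difference was -0.62 (SE 0.16, adjusted p = 0.0304), and the dimmer probe of the gene, 5.99 kb away, gave -0.90 (adjusted p over probes 0.00463). The call was not made in Cy5 alone (difference -0.27, adjusted p = 0.219), while the Cy3 reference was higher by 0.28 (adjusted p = 9.68e-05). It was also lost without any 1 of Fzd8-CRD replicates 1, 3 and 5 or control replicates 1 and 3 (adjusted p 0.0592 to 0.0684).

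Slc7a5 (LAT1), the large neutral amino acid light chain that pairs with Slc3a2 in most growing cells, did not pass the test. Its log2 ratio was -0.31, -0.46, -0.44, -0.05 and -0.47 with Fzd8-CRD and -0.30, -0.14, 0.08 and -0.17 in controls. The groups overlapped, and the difference was -0.21 (SE 0.13, adjusted p = 0.289). In Cy5 alone the sign turned, with a difference of 0.29 (adjusted p = 0.132). Slc7a8, Slc3a2 and Slc7a5 thus gave ratio differences of -1.46, -0.62 and -0.21, of which the first 2 passed. In Cy5 alone they gave -0.46, -0.27 and 0.29, of which only the first passed. Their Cy3 reference was higher on the Fzd8-CRD arrays by 0.81, 0.28 and 0.38.

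Slc43a2 (LAT4), a facilitated uniporter for branched-chain and aromatic amino acids, was 2.23-fold higher in Fzd8-CRD cells on its brightest probe. The log2 ratio was 1.61, 1.71, 2.15, 1.51 and 1.01 with Fzd8-CRD and 0.93, 0.48, 0.02 and 0.33 in controls. Every treated array lay above every control array, although the lowest treated and highest control arrays came close. The difference was 1.16 (SE 0.24, adjusted p = 0.0162). It lay in the tumour cell channel, where Cy5 alone differed by 1.42 (adjusted p = 0.00771) and the Cy3 reference by 0.14 (adjusted p = 0.184). The call was lost only when the closest pair of arrays in each group was averaged to 1 (difference 1.05, adjusted p = 0.0927).

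**Figure D2:**
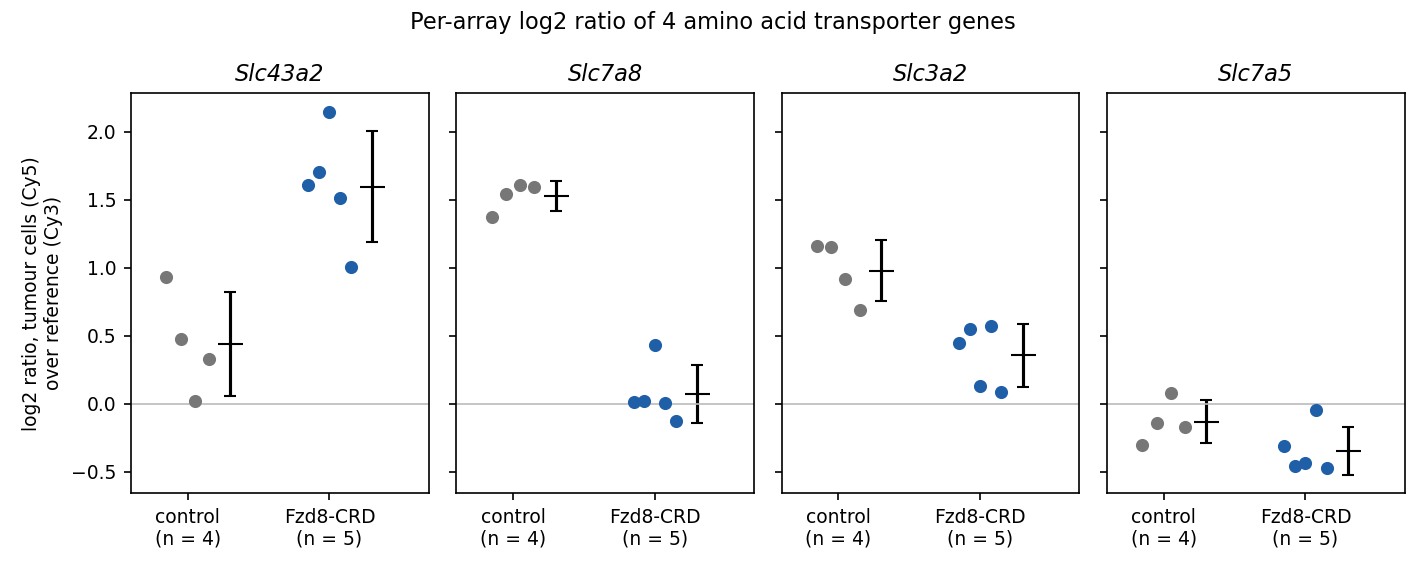
Log2 ratio of Cy5 over Cy3 (y axis) on each control array (grey) and Fzd8-CRD array (blue) for Slc43a2, Slc7a8, Slc3a2 and Slc7a5, with the group mean and SD beside the points. The groups are apart for the first 3 genes, with mean ratios of 1.60 against 0.44, 0.07 against 1.53 and 0.36 against 0.98, and overlap for Slc7a5.

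**Figure D3:**
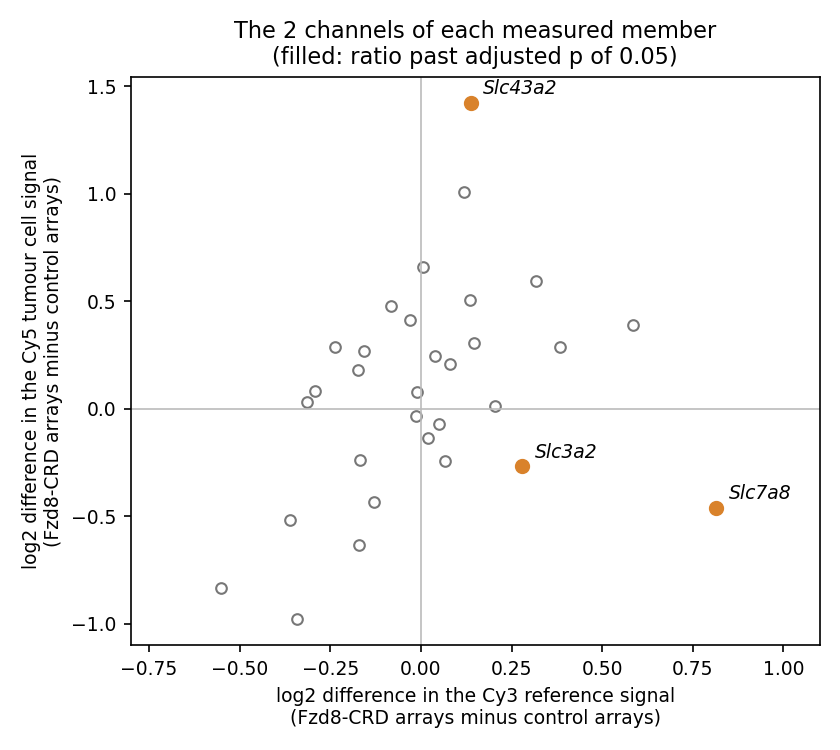
Difference of each measured member in the Cy3 reference signal (x axis, log2) and in the Cy5 tumour cell signal (y axis, log2), Fzd8-CRD arrays minus control arrays, each channel normalized alone; filled points passed the test on the ratio. Slc43a2 stands high on the Cy5 axis (1.42) near 0 on the Cy3 axis, and Slc7a8 stands farthest right (0.81).

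Among members measured by several probes, the probes did not always give the same difference, most clearly for Slc43a2. Its second kept probe, designed on the RefSeq transcript 39.9 kb downstream of the cDNA clone probe, gave a difference of 0.07 (SE 0.17, adjusted p over probes 0.79), against 1.16 for the clone probe. Slc38a2 (SNAT2), a sodium-coupled importer of small neutral amino acids and glutamine, showed the same contrast. Its clone probe gave a difference of 1.00 (SE 0.29, adjusted p over probes 0.0452), whereas another probe on the same clone 1.09 kb away gave 0.10 and the 2 RefSeq transcript probes gave 0.28 and 0.24, none of them called. For these genes the 2 called probes both rest on cDNA clone records, and which transcripts they detect was not tested. The second probe of Slc36a4 was called as well, with a difference of 0.40 (adjusted p over probes 0.0397) beside 0.09 for the brightest probe of that gene, but it was above background on only 1 of the 5 treated arrays and on 3 controls, so its size is uncertain. In all, 3 of 52 kept member probes were higher and 3 lower, beside 6.77% higher and 7.84% lower over all kept probes.

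**Figure D4:**
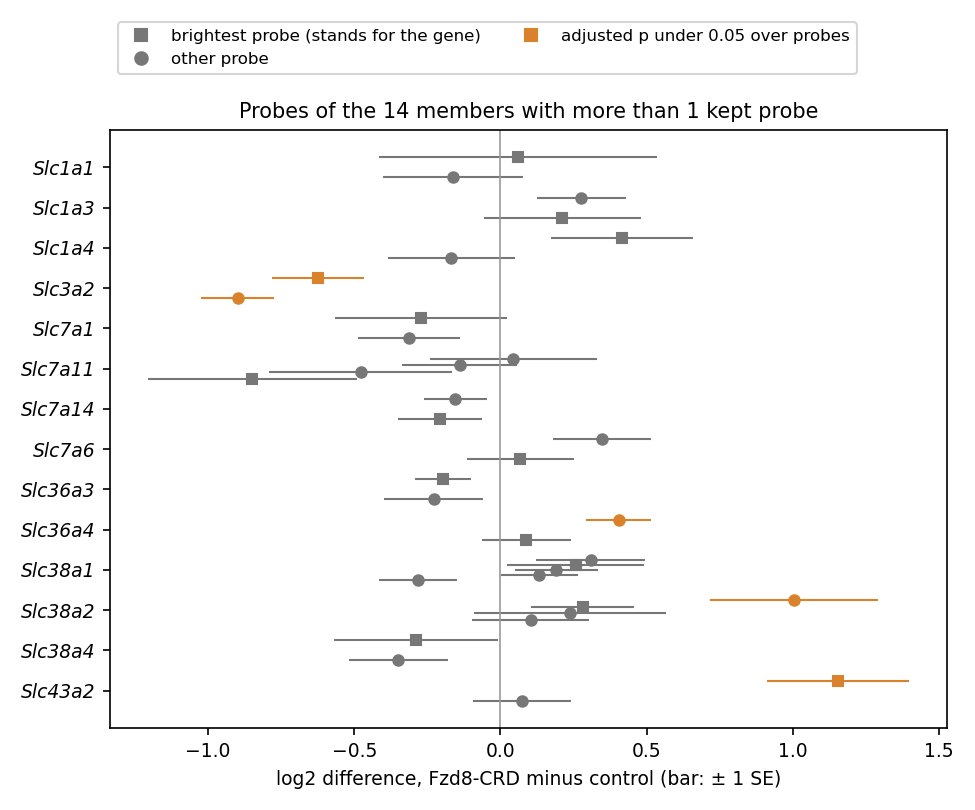
Log2 difference (Fzd8-CRD minus control, x axis, with 1 SE) of every kept probe of the 14 members with more than 1; squares mark the brightest probe, orange an adjusted p under 0.05 over probes. Both Slc3a2 probes are low together (-0.62 and -0.90), whereas Slc43a2 and Slc38a2 each have 1 probe near or above 1 and the others between 0.07 and 0.28.

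In the Slc7a family, Slc7a8 was the only call among 13 measured genes. The other 12 ranged from -0.89 to 0.50. Slc7a14, Slc7a9 and Slc7a15 were above background on 0, 1 and 2 treated arrays and on all 4 controls, so they entered the test mainly through the controls, and no direction is read from the family as a whole. Slc7a11 (xCT), the light chain that exchanges cystine for glutamate and so supplies cysteine for glutathione, had log2 ratios of -0.25, -0.63, 0.74, 1.28 and 0.62 with Fzd8-CRD and 1.17, 0.89, 1.41 and 1.33 in controls. Treated replicates 1 and 2 were far below the rest, while treated replicate 4 lay within the controls, and the difference of -0.85 (SE 0.36) did not pass (adjusted p = 0.137). Its other 3 probes gave -0.48, -0.14 and 0.04.

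The cationic carriers, which bring in arginine and lysine, did not pass either. Slc7a1 (CAT1) averaged -0.29 ± 0.62 (SD, n = 5) with Fzd8-CRD and -0.02 ± 0.21 (SD, n = 4) in controls, a difference of -0.27 (adjusted p = 0.545). Slc7a2 (CAT2) averaged 0.37 ± 0.09 and 0.89 ± 0.54, a difference of -0.51 (adjusted p = 0.148). Its control arrays were uneven at 1.18, 0.20, 0.73 and 1.43, and Cy5 alone gave a difference of -0.07. Without control replicate 2 the ratio difference was -0.74 and passed (adjusted p = 0.0173). That array was the lowest control for Slc7a2, so leaving it out widens the difference, and the pass is no support for a change. Slc7a3 gave 0.21, and the related Slc7a4 gave -0.34. Slc7a14, also a relative of the cationic carriers, gave -0.21 (adjusted p = 0.349) on its brightest probe, which was above background on all 4 controls but on none of the treated arrays. Its other kept probe was above background on 1 treated and 3 control arrays and gave -0.15. In Cy5 alone the brightest probe differed by -0.52 (adjusted p = 0.0289), with the treated value at background.

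Slc7a7 and Slc7a6, light chains that exchange cationic for neutral amino acids with Slc3a2, gave differences of -0.40 (adjusted p = 0.0907) and 0.07 (adjusted p = 0.82). Slc7a6os gave 0.50 (adjusted p = 0.0849). Slc3a1, the heavy chain of the cystine and dibasic amino acid carrier, gave -0.28 (adjusted p = 0.607), and its light chain Slc7a9 gave -0.45 (adjusted p = 0.36). The direction of Slc3a1 turned without control replicate 1 (0.04) and on the scanner software's log ratio (0.92), and without control replicate 2 it was -0.65, while Slc7a9 was then -0.04. Neither partner of that pair passed.

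In the Slc1a family none of 5 measured genes passed at an adjusted p of 0.05. Slc1a5 (ASCT2), a main route of glutamine into growing cells, averaged -0.14 ± 0.26 (SD, n = 5) with Fzd8-CRD and -0.43 ± 0.40 (SD, n = 4) in controls, a difference of 0.29 (SE 0.21, adjusted p = 0.358) that was 0.09 without control replicate 2. Slc1a4 (ASCT1), a serine, alanine and cysteine exchanger, differed by 0.42 (SE 0.24, adjusted p = 0.267) on its brighter probe and by -0.17 on the other. The glutamate carriers Slc1a3 and Slc1a6 gave 0.21 and -0.10, and both changed sign without control replicate 2 (-0.05 and 0.01). Slc1a1, another glutamate carrier, ranged from 2.54 to 4.95 on the treated arrays and from 3.46 to 4.38 on the controls, with a difference of 0.06. It was called higher only on the scanner software's log ratio and in the deposited series table.

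Of the Slc38a family none of 5 measured genes passed. Slc38a1 (SNAT1), a sodium-coupled glutamine importer, differed by 0.26 (SE 0.24, adjusted p = 0.468), with 4 of its 5 kept probes above 0. Slc38a2 on its brightest probe averaged 0.72 ± 0.18 (SD, n = 5) in treated and 0.44 ± 0.35 (SD, n = 4) in control cells and differed by 0.28 (adjusted p = 0.298). Slc38a4 differed by -0.29 (adjusted p = 0.495).

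Slc38a5 and Slc38a3, sodium-coupled carriers that move glutamine, asparagine and histidine, were both highest on control replicate 2. Slc38a5 was 0.91, 5.97, 2.39 and 2.97 on the 4 controls and 1.98, 2.19, 1.37, 1.74 and 1.88 with Fzd8-CRD. Its difference was -1.23 (SE 0.81, adjusted p = 0.32), -0.26 without control replicate 2, and 1.09 on the scanner software's log ratio, where the direction turned. Slc38a3 was 1.56, 4.85, 1.91 and 1.57 on the controls and 1.91 to 3.25 on the treated arrays. Control replicate 2 stood alone for Slc38a3, whereas the other controls of Slc38a5 were themselves spread. With control replicate 2 left out the difference of Slc38a3 went from 0.05 to 0.85 (adjusted p = 0.0901). The same array was highest for Slc7a15, at 3.41 against 0.10 to 0.16 on the other controls, for Slc7a9, at 1.68 against -0.09 to 0.19, and for Slc38a7, a glutamine carrier listed under an older name and so outside the 31, at 2.67 against 0.45 to 0.76. Slc7a3, Slc3a1 and Slc1a5 were instead lowest on control replicate 2, at -1.92, -0.23 and -1.03. Erythroid markers had a median of 5.12 on that array, against 0.68 to 1.54 on the other controls, and lymphocyte markers 1.94 against -0.34 to -0.01. Only 2 of 11 lymphocyte markers were above background on every array. Medians of macrophage (1.25), fibroblast (1.22), endothelial (1.44) and luminal (0.604) markers were also highest there, those of basal (-0.27) and adipocyte (0.207) markers were not. Their part in these values was not tested. Slc38a3 and Slc7a9, like Slc1a1, Slc7a3, Slc7a4, Slc7a6, Slc7a6os and Slc7a7, fall outside the rule for named genes and were chosen after their values were seen.

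**Figure D5:**
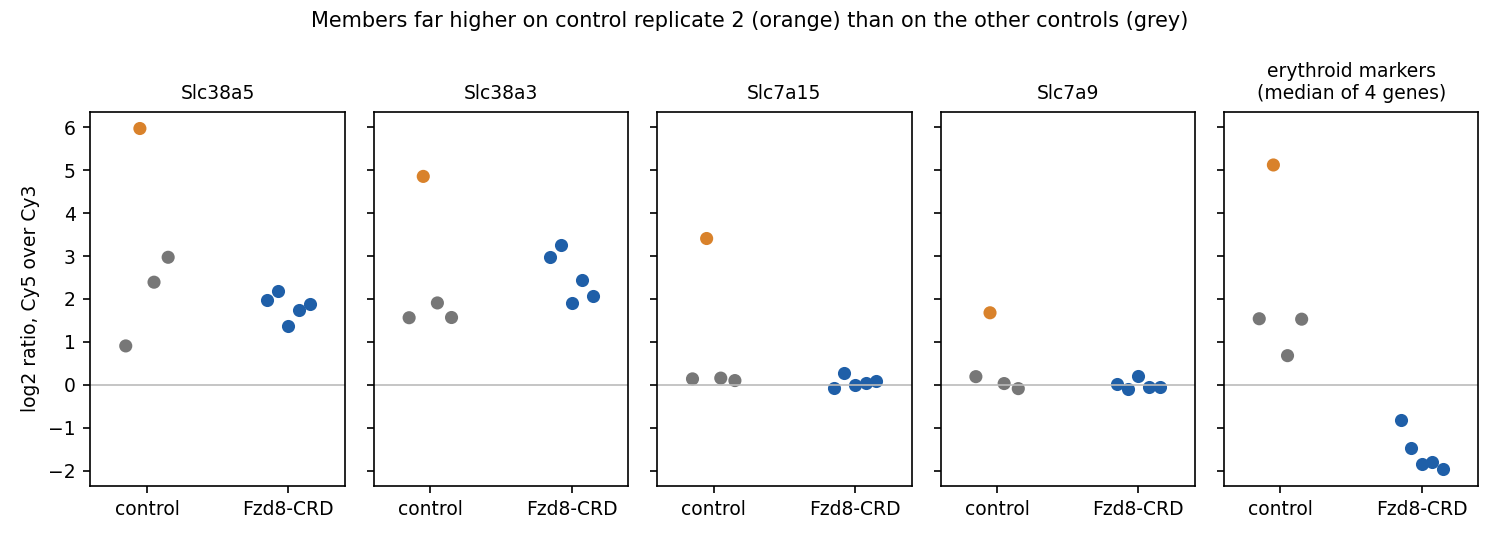
Log2 ratio of Cy5 over Cy3 (y axis) on each array for Slc38a5, Slc38a3, Slc7a15 and Slc7a9, and the per-array median of 4 erythroid marker genes; grey and orange points are controls (orange: replicate 2), blue points Fzd8-CRD. Control replicate 2 is the highest array in every panel, at 5.97, 4.85, 3.41, 1.68 and 5.12.

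The Slc36a family holds proton-coupled carriers, among them carriers of the lysosome, and none of its 3 measured genes passed. Slc36a1 (PAT1), which moves small neutral amino acids with protons and acts at the lysosome, was 0.03, 0.24, -0.02, -0.29 and 0.04 with Fzd8-CRD and -0.38, -0.58, -0.44 and -0.25 in controls. Only treated replicate 4 reached into the control range. The difference of 0.41 (SE 0.13) fell short of the threshold (adjusted p = 0.0641). Without that array, picked for its value, it was 0.49 (adjusted p = 0.0439), which is no support for a change. With any other 1 array left out it did not pass (adjusted p 0.0785 to 0.135). It did pass with no filter on dim probes (adjusted p = 0.0476), with array weights (0.0184), and with slide (0.0195) or scan day (0.0191) as a random block. Over all genes tested 5.83%, 14.9%, 13.5% and 13.7% were higher under those settings, and the blocks lie together with treatment. Cy5 alone gave 0.27 (adjusted p = 0.233), and the Cy3 reference was lower by a difference of -0.16. Slc36a4 and Slc36a3, its relatives, gave 0.09 (adjusted p = 0.716) and -0.20 (adjusted p = 0.199). Slc38a9, the lysosomal arginine sensor upstream of mTORC1, is on the array under an older name and outside the 31. Its brightest probe gave 0.14 (adjusted p = 0.565), while another of its 3 kept probes gave 0.91 (adjusted p over probes 0.0156).

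The remaining Slc43a genes did not pass. Slc43a1 (LAT3), a leucine uniporter like Slc43a2, averaged 0.47 ± 0.26 (SD, n = 5) and 0.46 ± 0.49 (SD, n = 4), a difference of 0.01 (adjusted p = 0.976). Slc43a3, which carries purine nucleobases and not amino acids, gave 0.30 (adjusted p = 0.295). The rise in the family therefore rested on the clone probe of Slc43a2.

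Genes that act with these carriers were counted from 4 lists written with earlier results of these data known, so their counts are not independent evidence. Their counts stand beside 6.59% higher, 7.75% lower and a median of -0.07 over all genes tested. Of 21 measured amino acid transporters outside the 6 families, 1 rose and 1 fell, fewer than those shares would give. Slc6a14, an epithelial carrier of neutral and cationic amino acids, fell by 1.50 (adjusted p = 0.0124), at 0.15 to 0.60 with Fzd8-CRD and 0.95 to 2.60 in controls. Slc25a29, a mitochondrial carrier of basic amino acids, rose by 0.81 (adjusted p = 0.0274). Both genes had groups that did not overlap.

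Of 25 genes of the amino acid response, 4 rose and 7 fell, above the shares over all genes in both directions, with a median difference of -0.43. Chac1, a glutathione-degrading ATF4 target, fell by 2.54 (adjusted p = 0.0123), Psat1, an enzyme of serine synthesis, fell by 1.37 (adjusted p = 0.00938), and Vldlr, a lipoprotein receptor, rose by 1.83 (adjusted p = 0.00478). Atf4 itself, named after its value was seen, fell by 0.80 (adjusted p = 0.02), but in Cy5 alone it did not pass (-0.53, adjusted p = 0.101). In Cy5 alone 3 of the 25 genes rose and 4 fell, beside 10.4% higher and 8.6% lower over all genes tested. The direction of Trib3, counted among the risen and also named after its value was seen, turned in Cy5 alone (-0.32, adjusted p = 0.232). The counts moved with the setting while the median kept its sign. With median centring 1 rose and 0 fell (median -0.33), beside 1.69% higher and 1.66% lower over all genes tested. Averaging the closest arrays again gave 1 and 0 (median -0.45), beside 0.684% and 1.17%. Array weights gave 4 and 11, beside 14.9% and 18.7% of all genes. Slide as a random block gave 5 and 14, beside 13.5% and 16.6%, and scan day 5 and 14, beside 13.7% and 17.3%. Both blocks lie together with treatment and had correlations below 0, so these fits do not adjust for batch.

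Of 28 genes of amino acid sensing at the lysosome, 2 rose and 2 fell, close to the shares over all genes. Sec13, a shared subunit of a complex upstream of mTORC1 and of coat vesicles, fell by 0.89 (adjusted p = 0.00532), but Cy5 alone gave -0.30 (adjusted p = 0.252) and the Cy3 reference was higher by 0.47. Lamtor5, a subunit of the lysosomal scaffold, fell by 0.85 (adjusted p = 0.0238), and Castor2, of the arginine sensor family, rose by 0.50 (adjusted p = 0.0305). Of 20 glutamine and glutamate enzymes, 3 rose and 1 fell. Gfpt1, which uses glutamine to start hexosamine synthesis, rose by 0.83 (adjusted p = 0.00542), Aldh4a1, a mitochondrial enzyme of proline breakdown, rose by 0.81 (adjusted p = 0.0229), and Gmps, which uses glutamine to make guanine nucleotides, fell by 0.90 (adjusted p = 0.0281), which did not pass in Cy5 alone (-0.63, adjusted p = 0.101). With median centring the calls of both lists went to 0, while over all genes tested 1.69% were then called higher and 1.66% lower. The cause was not tested.

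Promoter windows of 300 bases, 250 before and 50 after the start site, were listed for 23 of the 31 measured members (RefSeq, GRCm38.p6). They were searched on both strands for TGATGNAA, the core of the site through which ATF4 acts in the amino acid response, and for CTTTGAT, a core of the TCF/LEF site of Wnt target genes. No match of the first overlapped a match of the second in these windows. The first was found for 3 members (Slc1a4, Slc7a11 and Slc7a7), beside 3.97% of all 32851 listed windows, and the second for 1 (Slc7a1), beside 3.73%. The 23 members had 34 windows between them, so a member could have more than 1 chance to match. A count of members and a share of windows are thus not directly comparable. No window of Slc43a2, Slc3a2 or Slc7a8 held either set of letters. The stretches of Slc7a11, which holds the first motif on both strands, and of Slc7a1 are shown with the matches in capitals, 5′ to 3′ along the gene.
Slc7a11, chr3:50443623-50443709, minus strand: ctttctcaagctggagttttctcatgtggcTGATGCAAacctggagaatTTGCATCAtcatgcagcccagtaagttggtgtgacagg
Slc7a1, chr5:148392827-148392893, minus strand: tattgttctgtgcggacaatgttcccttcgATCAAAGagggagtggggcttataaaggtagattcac
Neither Slc7a11 nor Slc7a1 passed the test (differences of -0.85 and -0.27), and a match is a description of letters, not of binding.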

How the data were processed

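Spot intensity values (foreground means, local background medians) and a log10 ratio of Cy5 to Cy3 come, per the file headers, from version 9.5.3.1 of Agilent's Feature Extraction. Each column of the deposited value table is a linear ratio, which on a log2 scale correlated at 1 with that array's scanner value, with median ratios of 0.833 to 0.954.

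The label fields disagree on the Cy3 reference (universal mouse RNA, a pool of strains, universal human RNA), and whether both groups shared it is not known from these sources. Replicates are numbered in accession order and pair nothing.

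Background was corrected by normexp (offset 50) and ratios by loess within arrays (limma 3.58.1, R 4.3.3). Control spots had no weight, and 1229 outlier spots were left out, 1 of them of a member. Spots of a probe were averaged. A probe was kept where the scanner marked it well above background in the Cy5 channel of 4 or more arrays, and a gene was represented by its brightest kept probe. Genes were named from RefSeq's table by accession, symbol or synonym, else as in the file. Groups were compared with lmFit and eBayes over all genes, with Benjamini-Hochberg adjustment at 0.05. Single-channel values were quantile normalized and tested the same way. The offset understates differences of dim genes. The gene test was also run on simulated log ratios with independent noise. These held no slide, scan day or reference differences, so that run cannot speak to them. The number of arrays limits the precision.

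Named genes are all called members, 11 set members, the 2 further genes of each family with the largest difference, genes above background in only 1 group, and up to 3 called genes per list with the smallest p. Those named outside this rule are given as such. The members, lists and rules were chosen with earlier results of these data known.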

Additional observations from a re-analysis of the deposited data

Results flagged for a closer look

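Of 70 groups of arrays (35 genes of the 6 families, including those under older names, in each group), 8 held 1 array whose gap to its nearest neighbour exceeded Dixon's critical value, where chance gives about 1 in 20. Of these, 4 stood out on control replicate 2: Slc7a15 was at 3.41 (next 0.16), Slc38a3 at 4.85 (next 1.91), Slc7a9 at 1.68 (next 0.19) and Slc38a7 at 2.67 (next 0.76). On the Fzd8-CRD side, Slc1a3 was at 1.41 on replicate 4 (next 0.68), Slc36a4 at -0.69 on replicate 2 (next -0.14) and Slc3a1 at 0.19 on replicate 5 (next 0.63). For Slc7a8, Fzd8-CRD replicate 3 was at 0.43 (next 0.02), still below every control array.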

How the results depend on the processing

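Slc7a8 kept its call and its direction under all 25 alternatives, and Slc43a2 under all but the averaging of the closest arrays. The alternatives are not independent. Slc7a8 has a single probe, so the other probe filters and the mean of kept probes left its difference at -1.46. Quantile scaling of spot brightness between arrays also left it at -1.46. The series table repeats the scanner software's ratio, with -1.56 in both. Slc3a2 kept its direction and lost its call under 11. The count of members higher, 1 in the report, was 2 with the scanner software's ratio, the series table, Cy5 alone or no filter on dim probes. Over all genes the share higher was then 8.5%, 8.47%, 10.4% and 5.83%. The count was 3 with array weights or with slide or scan day as a random block, and 0 with the closest arrays averaged. Here the share higher over all genes was 14.9%, 13.5%, 13.7% and 0.684%. Leaving out 1 array gave 1 to 2, beside 3.42% to 7.38% of all genes. The count lower, 2 in the report, was 1 with the scanner software's ratio, the series table, median centring, scaling or the closest arrays averaged. Over all genes the share lower was then 6.65%, 6.35%, 1.66%, 5.95% and 1.17%. The count was 6 with array weights and 4 with either block, beside 18.7%, 16.6% and 17.3% of all genes lower. Leaving out 1 array gave 1 to 3, beside 3.91% to 9.54% of all genes. The median of -0.10 became 0.191 with the scanner software's ratio, 0.269 in the series table, 0.0129 with median centring, 0.084 in Cy5 alone, 0.0052 without a filter and 0.0484 for probes above background on all arrays. With every kept probe tested alone, 3 of 52 member probes were higher and 3 lower. The cause was not tested. Both blocks had correlations below 0 (-0.167 for slide, -0.12 for scan day). No paired analysis was possible because the replicate numbers come from accession order. Dim genes such as Slc7a14 and Slc36a3 are limited by signal over background.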
